A study of Mus musculus with 20 samples.

Results

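The genes described here are 10 regulators of cell death, 9 of the BCL2 family and the p53 gene Trp53, taken as a list of names and read in each of 20 single cells of the mouse blastocyst's inner cell mass. The array annotation named a probe set for 8 of the 10 (Pmaip1, Bbc3, Bcl2l11, Bcl2l14, Bak1, Bcl2, Bcl2l1 and Mcl1, with 26 probe sets in all), out of 18193 genes represented. It paired no probe set with Bax or Trp53, which were not analysed here. Every cell came from a C57BL/6 blastocyst at embryonic day 3.5, with no treatment, and all 20 form 1 group. The series design states that 55 dissociated cells were taken at random and that PCR on their amplified cDNA found Oct4 without Cdx2 in 50. The labels do not tie cells to embryos, so nothing here measures variation between embryos.

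Proteins of the BCL2 family decide whether the outer membrane of the mitochondrion is opened, the step that releases cytochrome c and starts the caspase cascade. BH3-only proteins sense stress and lost survival signals, effectors such as BAK form the pore, and guardians such as BCL-2, BCL-XL and MCL-1 bind and restrain both. In the blastocyst, cell death is known to remove some inner cell mass cells while epiblast and primitive endoderm are being sorted out.

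The level of a gene is log2(intensity + 8.49) of its brightest probe set after quantile normalization, and the lowest level possible was 3.25. The floor of an array is the 95th percentile of 146 probe sets for olfactory or vomeronasal receptors and for genes of tissues unrelated to the blastocyst, and lay between 6.40 and 7.09. A reading under the floor does not show that the transcript was absent, since 1 cell gives little RNA to amplify. Levels of different genes are not set against each other, because probe sets differ in brightness. Cells were also grouped by 500 variable genes that included none of the genes on any list used here. A cluster of 9 cells had 3 epiblast markers among its 10 leading genes (Fgf4, Klf2 and Prdm14), and is called EPI-like, for epiblast-like (cells 1, 2, 7, 9, 12, 13, 14, 18 and 19). The other 11 cells had 7 primitive endoderm markers among the 10 leading genes and are called PrE-like, for primitive endoderm-like. Cell 16 in that cluster went against its name, with Fgf4 above and Gata4 under the floor, and it moved to the EPI-like side with 250 genes or with a split by Fgf4. Differences in the split by Fgf4 (10 cells with it above the floor and 10 without) are given beside those of the clusters for the 6 members tested and for some of the pathway genes. The clusters come from the same cells, so differences between them are descriptions with no test. Of 13 trophectoderm markers measured, 5 were under the floor in all 20 cells (Krt7, Krt19, Elf5, Gata3 and Atp12a). The other 8 were above it in at least 1 cell, with 3 to 6 in each EPI-like and 3 to 5 in each PrE-like cell. The mean level of the list overlapped between the clusters, from 5.41 to 6.96 in EPI-like and from 5.99 to 6.89 in PrE-like cells. Of 9 oocyte and polar body markers measured, 3 were under the floor in all cells (Zp1, Bmp15 and Mos) and 6 above it in some. The mean level of that list was higher in the EPI-like cells, from 5.81 to 6.83 against 4.59 to 6.09. Of all genes represented, 33.0% were above the floor in 0 cells, so these counts do not show that such cell types were absent.

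The family split into 3 patterns. Mcl1 and Bcl2l1 were above the floor in 20 of 20 cells, a state shared by 17.6% of all genes represented. Bcl2, Bak1 and Bbc3 were at or under the floor in nearly every cell, with 0, 1 and 3 cells above it. Pmaip1, Bcl2l11 and Bcl2l14 were above the floor in 13, 8 and 15 cells, a mixed state (5 to 15 cells) that held for 21.9% of all genes represented. Each cell had between 3 and 5 of the 8 genes above its floor. Pmaip1 and Bcl2l14 were both above the floor in 8 cells, Pmaip1 alone in 5, Bcl2l14 alone in 7 and neither in 0. Whether these counts differ from those of unrelated genes was not tested.

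**Figure D1:**
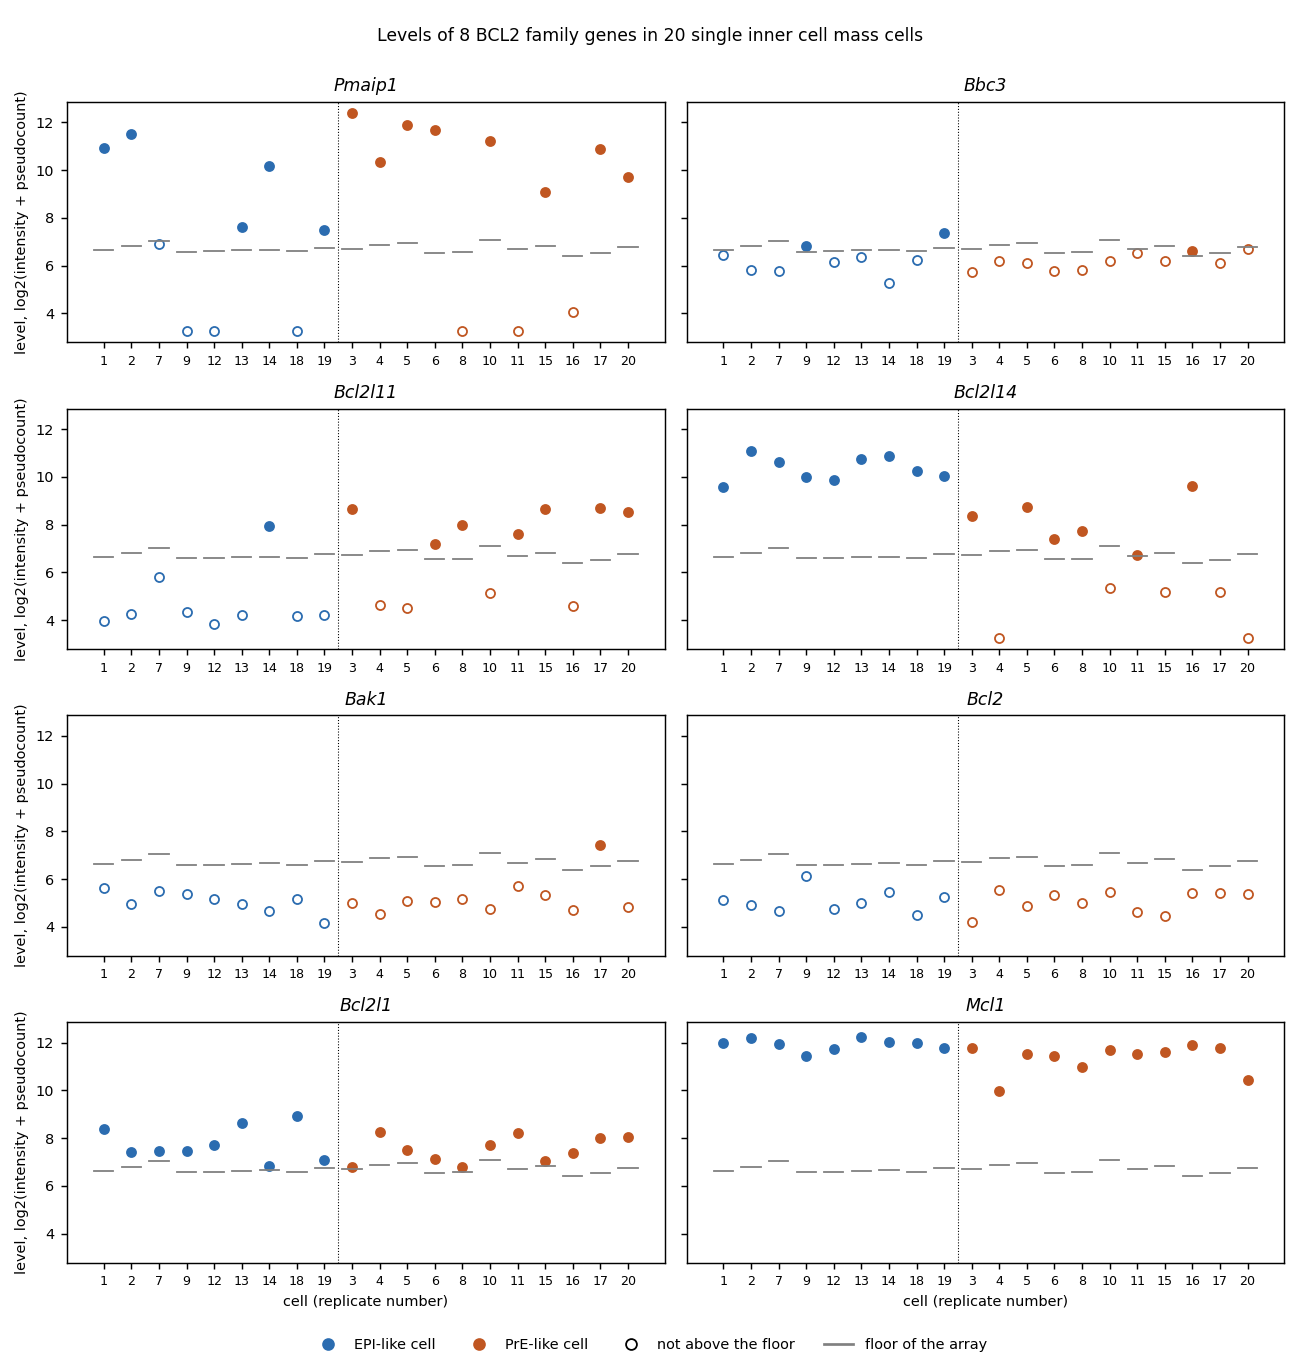
Level of each of the 8 genes (vertical axis, log2 of intensity plus pseudocount) in each of the 20 cells (horizontal axis), with the 9 EPI-like cells left of the dotted line and the 11 PrE-like cells right of it. Filled points are above the floor of their array (grey bar). Bcl2l14 is above the floor in 9 of 9 EPI-like cells, Bcl2l11 in 7 of 11 PrE-like cells, and Pmaip1 is spread from 3.25 to 12.40.

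Among the BH3-only genes, Pmaip1 differed most from cell to cell. Pmaip1 encodes NOXA, a p53-inducible BH3-only protein that binds MCL-1 and promotes its loss. Its level ran from 3.25 to 12.40 (median 9.41, mean 8.11 ± 3.495, SD, n = 20 cells), and 5 cells (8, 9, 11, 12 and 18) read the lowest value possible. The widest gap between neighbouring cells lay between 4.04 and 6.91, with 6 cells under it and 14 over it. Both edges were readings under the floor (cells 16 and 7), so the gap does not divide the cells by detection, with 13 above the floor. Its SD was larger than that of 99.9% of the 1607 tested genes with a mean level within 0.5 of its own. In the variance test across the 10499 genes that exceeded the floor in 3 cells or more (limma, Benjamini-Hochberg), Pmaip1 had an unadjusted p of 0.0490 and an adjusted p of 0.725. That test called 0% of genes at an adjusted p of 0.05, and 21 genes had an unadjusted p under 0.05, so no member passed it.

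Pmaip1 did not follow the lineage clusters closely. In the 9 EPI-like cells its lowest, median and highest levels were 3.25, 7.48 and 11.50, and in the 11 PrE-like cells they were 3.25, 10.35 and 12.40. The clusters overlapped over nearly the whole range, with cells above the floor in both (5 of 9 and 8 of 11). The means were 7.15 ± 3.33 and 8.89 ± 3.59, a difference of -1.74 (EPI-like minus PrE-like, log2), within the spread between cells. Split by Fgf4 the difference was -2.53, and without cell 16 it was -2.22. Of the 10499 genes tested, 8.12% were at least 2-fold higher in the PrE-like cells, and 8.39% in the cells without Fgf4. Of the 7 cells under the floor for Pmaip1, 4 were EPI-like (7, 9, 12 and 18) and 3 were PrE-like (8, 11 and 16).

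The genes whose ranks over the 20 cells were most like those of Pmaip1 were Mrpl44 (Spearman's rho = 0.75), a mitochondrial ribosomal protein gene, Abi1 (0.71), an actin regulator gene, and Crygd (0.70), a lens crystallin gene that is also among the genes that set the floor. These were the highest of the 10499 genes tested, which share arrays and amplification, and are given as a description.

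Bcl2l11, which encodes BIM, a BH3-only protein that can bind every BCL2-type guardian and activate the effectors, was found mainly in the PrE-like cells. It was above the floor in 7 of 11 of these cells (3, 6, 8, 11, 15, 17 and 20) and in 1 of 9 EPI-like cells (cell 14). The lowest, median and highest levels were 3.84, 4.23 and 7.96 in the EPI-like and 4.50, 7.62 and 8.70 in the PrE-like cells. Apart from cell 14, the highest EPI-like cell was cell 7, which was under its floor at 5.80. The means were 4.76 ± 1.33 (n = 9) and 6.93 ± 1.82 (n = 11), a difference of -2.17 that shrank to -0.85 when values under the floor were raised to it. Split by Fgf4 it was -2.42, with 1 of 10 cells with Fgf4 and 7 of 10 without it above the floor. A difference of at least 2-fold in this direction held for 8.12% of the 10499 genes tested. Of the 8 cells above the floor, 3 (8, 17 and 20) belong to the 4 PrE-like cells (with cell 4) that had the lowest scores for mitotic genes, while cell 4 was under the floor at 4.64. Without those 4 cells the difference was -1.86.

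The result for Bcl2l11 rests on 1 of its 5 probe sets. The other 4 were above the floor in 2 to 4 cells, and their Pearson correlations with the brightest over the 20 cells were between 0.03 and 0.45. The probe set 1426334_a_at was above the floor in 3 EPI-like cells and 1 PrE-like cell, with a difference of 0.77, opposite in sign to the brightest. With the mean of all probe sets the difference was -0.74, and 1 cell was above the floor. Cell 17 was above its floor by 4 of the 5 probe sets, with 9.995 by 1456005_a_at, 8.97 by 1456006_at, 8.70 by the brightest and 8.005 by 1435449_at. Col4a2, a basement membrane collagen gene on the list of primitive endoderm markers, was among the 3 genes closest to Bcl2l11 in rank (rho = 0.82), with Arcn1 (0.84), a coat protein gene of Golgi vesicles, and 1700073E17Rik (0.82).

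Bbc3, which encodes PUMA, a BH3-only protein strongly induced by p53, stayed close to the floor in every cell. Its levels ran from 5.28 to 7.35 (median 6.20, SD 0.46), and cells 9, 16 and 19 were above their floors. The highest reading, 7.35, was in cell 19, whose array had a median intensity of 15.005 against 25.6 to 30.2 in the others. With the floor set at the 90th percentile of the floor probe sets 9 cells were above it, and at the 99th percentile 0 cells. The clusters differed by 0.07, far within the SD of 0.61 and 0.33, and the Fgf4 split gave 0.15.

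Bcl2l14, which encodes BCL-G, a BH3-containing member described as pro-apoptotic, had the largest difference between the clusters among the 6 genes tested. Its lowest, median and highest levels were 9.59, 10.24 and 11.08 in the 9 EPI-like cells and 3.25, 6.72 and 9.62 in the 11 PrE-like cells. Every EPI-like cell was above the floor, and so were 6 of 11 PrE-like cells (3, 5, 6, 8, 11 and 16). The means were 10.34 ± 0.51 and 6.44 ± 2.15, a difference of 3.90 that was larger than either SD, and 2.82 after readings below the floor were set to the floor. A difference of at least 2-fold in this direction held for 11.7% of the genes tested. The highest PrE-like cell was cell 16, at 9.62, just over the lowest EPI-like cell. With cell 16 on the other side, as in the split by Fgf4, the 10 cells with Fgf4 ran from 9.59 to 11.08 and the 10 without it from 3.25 to 8.75, a difference of 4.15 with no overlap, as for 0.0952% of genes tested in this direction. The levels varied far more among the PrE-like cells, where cells 4 and 20 read the lowest value possible.

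The other Bcl2l14 probe set gave a similar order. It was above the floor in 8 of 9 EPI-like and 1 of 11 PrE-like cells (cell 16), differed by 3.10, and correlated with the brightest at r = 0.86 (rho = 0.84) over the 20 cells. The clusters also differed in other measures. Over the 20 cells Bcl2l14 had r = 0.63 with the mean score of mitotic genes and r = 0.69 with the mean correlation of a cell with the others, and the oocyte and polar body list was also higher in the EPI-like cells, as given above. The part of these in the result was not tested. Without cells 4, 8, 17 and 20 the difference was 3.001. The genes nearest to Bcl2l14 in rank were AU018091 (rho = 0.86), Morc1 (0.85), a germ-line gene that silences transposons, and Sod2 (0.85), the mitochondrial superoxide dismutase gene.

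The 250 bases upstream of the first annotated start of Bcl2l14 and of Bcl2l11 are shown because these members had the largest differences, in opposite directions, between the clusters of 9 and 11 cells. Split by Fgf4, or with values raised to the floor, Pmaip1 was the more negative (-2.53 against -2.42 for Bcl2l11, and -1.44 against -0.85). They are RefSeq sequences of build GRCm38.p6, both on the plus strand, at chr6:134396079-134396328 for Bcl2l14 and chr2:128125788-128126037 for Bcl2l11, and each gene has another annotated start that is not shown. Capitals mark a forkhead word.
Bcl2l14: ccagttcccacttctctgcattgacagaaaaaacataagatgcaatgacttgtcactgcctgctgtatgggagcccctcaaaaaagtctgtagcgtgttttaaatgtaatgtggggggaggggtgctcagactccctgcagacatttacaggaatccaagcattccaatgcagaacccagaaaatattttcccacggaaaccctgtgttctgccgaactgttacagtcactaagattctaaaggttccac
Bcl2l11: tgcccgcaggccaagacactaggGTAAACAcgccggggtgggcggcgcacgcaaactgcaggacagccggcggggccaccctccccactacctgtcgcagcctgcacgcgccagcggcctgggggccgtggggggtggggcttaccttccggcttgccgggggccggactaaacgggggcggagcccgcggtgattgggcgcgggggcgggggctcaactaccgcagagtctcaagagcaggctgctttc
The Bcl2l14 sequence held 45.6% G and C and 3 CpG, and the Bcl2l11 sequence 72.0% and 24 CpG, against medians of 52.0% and 6 CpG over 27025 promoters of this length. Both strands were searched for the octamer word of POU factors (ATGCAAAT, in 1.62% of all these promoters), the GATA word GATAA (23.0%), the SOX word ACAAAG (16.5%) and the forkhead word GTAAACA (3.06%). The forkhead word occurred at position -227 of Bcl2l11, and there was no other match in either window. A match or its lack in this window describes the letters and says nothing on the binding of a factor.

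Of the pore-forming effectors BAK and BAX, the gene for BAK was measured. Bak1 was under the floor in 19 of 20 cells. Its levels ran from 4.17 to 5.71 in those cells and reached 7.44 in cell 17, the cell with the highest Bcl2l11. Its second probe set gave 0 cells above the floor, cell 17 included. Because it was above the floor in fewer than 3 cells, Bak1 was not tested, and no fold is given.

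The guardians differed in how they were detected. Bcl2, which encodes the founding member of the family, was above the floor in 0 of 20 cells by any of its 5 probe sets, and its brightest read between 4.22 and 6.12. Of all genes represented, 33.0% were above the floor in 0 cells. Bcl2l1, which encodes BCL-XL, was above the floor in 20 cells by its brightest probe set, with lowest, median and highest levels of 6.79, 7.48 and 8.91. It was close to the floor, however, since 5 cells remained above it with the 99th percentile. Its other 3 probe sets were above the floor in 0, 0 and 1 cells. The clusters overlapped (7.77 ± 0.72, n = 9, against 7.55 ± 0.56, n = 11), with a difference of 0.23 (0.17 split by Fgf4) within the spread between cells. Cells 1, 13 and 18 were the highest, and cells 3, 8 and 14 the lowest.

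Mcl1, which encodes a short-lived guardian that is required for the mouse embryo to pass the peri-implantation stage, was above the floor in 20 of 20 cells by each of its 6 probe sets. The brightest read 11.43, 11.98 and 12.26 (lowest, median and highest) in the EPI-like and 9.96, 11.54 and 11.91 in the PrE-like cells. The clusters overlapped, and cells 4 (9.96) and 20 (10.45) stood below all others, which lay at 10.97 or higher. The means were 11.93 ± 0.25 and 11.34 ± 0.62, a difference of 0.59 that was within the larger SD. It was 0.65 split by Fgf4, and 0.28 without cells 4, 8, 17 and 20.

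The Mcl1 probe sets fell into 3 sets that ordered the cells differently. Probe sets 1416880_at, 1437527_x_at, 1456243_x_at and 1456381_x_at ranked the cells almost alike (Pearson's r of 0.95 or more for every pair) and had their lowest values in cells 6, 8 and 17. By 1416880_at these read 7.95, 9.18 and 8.23, while the remaining cells read 10.07 or higher, cells 4 and 20 among them. The brightest, 1448503_at, had r between 0.03 and 0.07 with those 4 and 0.44 with 1416881_at. The last, 1416881_at, differed by 1.23 between the clusters, and the other 5 by 0.38 to 0.59, all higher in the EPI-like cells. The brightest also had r = 0.81 with the mean score of mitotic genes over the 20 cells, against 0.14 to 0.46 for the other 5. Which transcript parts these probe sets read was not examined.

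**Figure D2:**
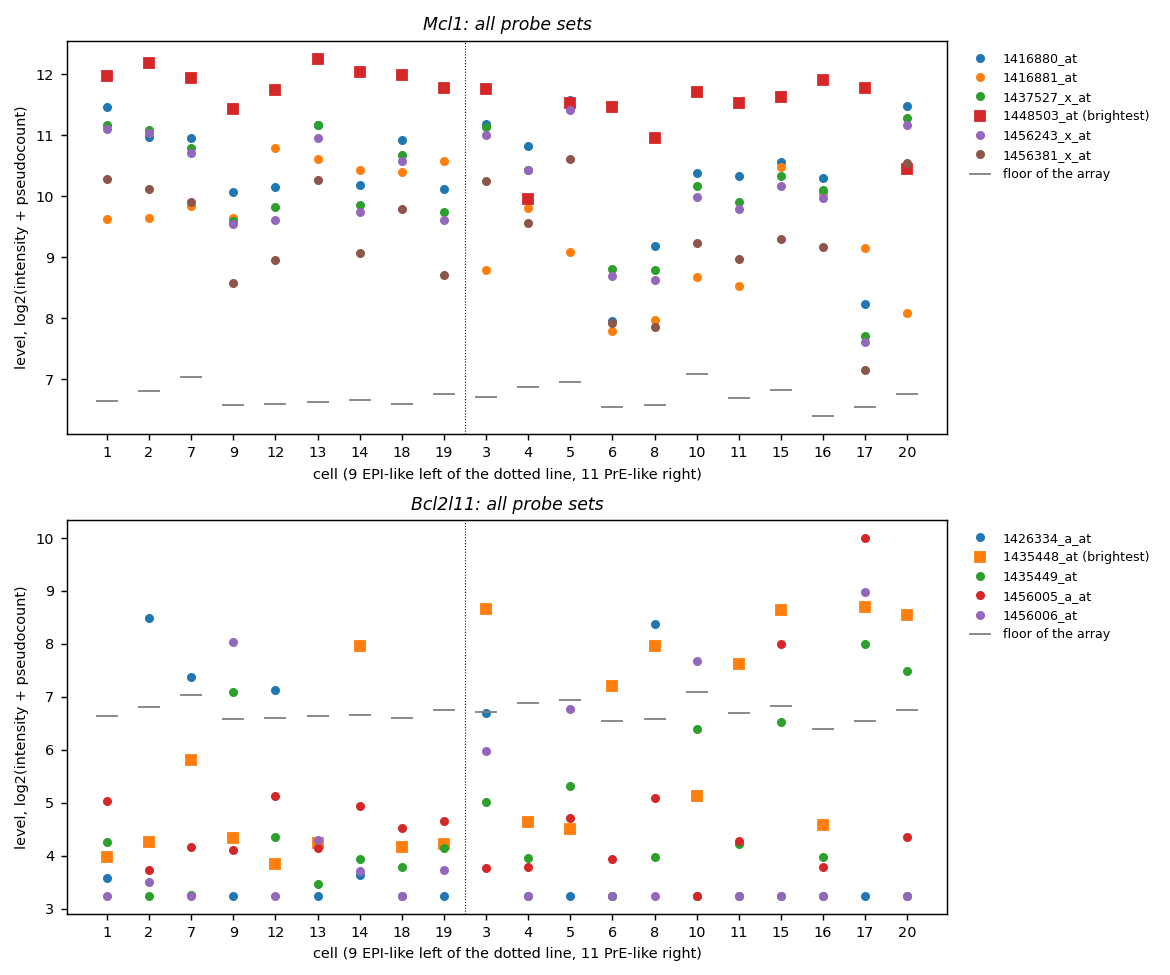
Levels (vertical axis, log2 of intensity plus pseudocount) of the 6 Mcl1 and the 5 Bcl2l11 probe sets in each cell (horizontal axis), with the brightest as squares and the floor as grey bars. Every Mcl1 probe set is above the floor in 20 cells, with 4 of them lowest in cells 6, 8 and 17, while the 4 other Bcl2l11 probe sets are above the floor in 2 to 4 cells.

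Among the 15 pairs of the 6 tested genes, 2 had a Pearson correlation of at least 0.5 in size over the 20 cells. Bcl2l14 and Mcl1 had r = 0.76 (rho = 0.76), and r = 0.51 without cells 4 and 20, the lowest for both. The relation was that of the brightest Mcl1 probe set, since Bcl2l14 had r = 0.50 with 1416881_at and between 0.15 and 0.19 with the other 4. Within the 9 EPI-like and the 11 PrE-like cells r was 0.64 and 0.65, the value for the PrE-like cells with cells 4 and 20 included. Bcl2l14 and Bcl2l11 had r = -0.51 (rho = -0.56), with 5 cells above the floor for both (3, 6, 8, 11 and 14), 10 for Bcl2l14 alone, 3 for Bcl2l11 alone (15, 17 and 20) and 2 for neither (4 and 10). Within the clusters that relation did not keep its sign, with r = 0.52 and -0.21. Pmaip1 and Bcl2l11, both BH3-only genes, had r = 0.23 and were above the floor together in 6 cells. All cells share the method of amplification, and these values carry no p.

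**Figure D3:**
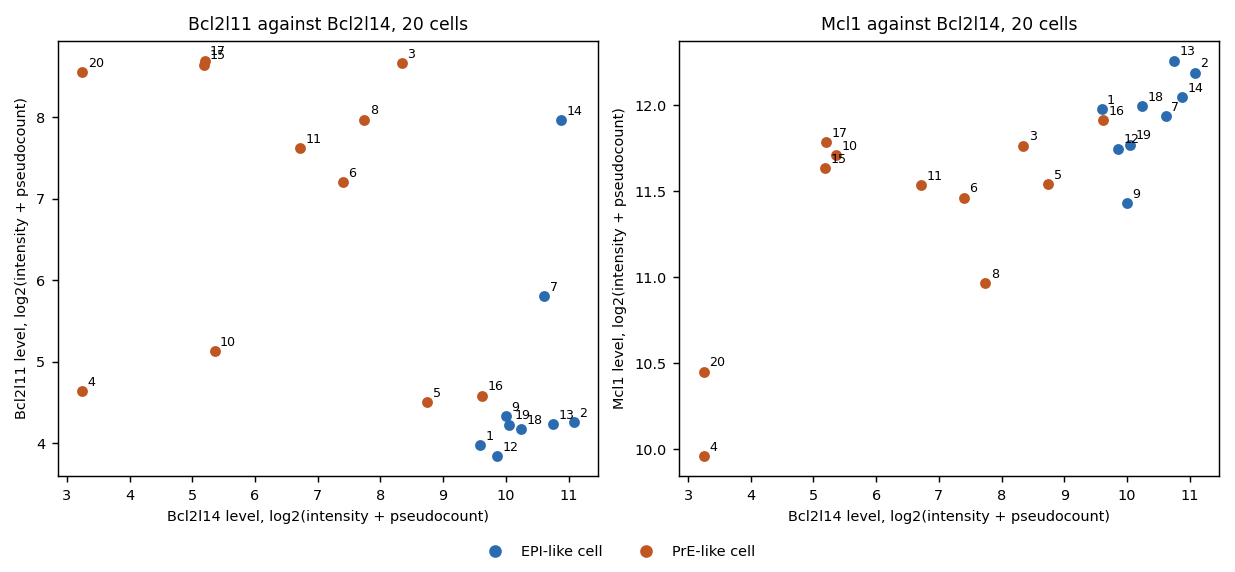
Level of Bcl2l11 (left) and of Mcl1 (right) against that of Bcl2l14 in the 20 cells, log2 of intensity plus pseudocount on each axis, with replicate numbers beside the points. Cell 14 is the EPI-like cell with high Bcl2l11, and cells 4 and 20 are lowest for both Bcl2l14 and Mcl1.

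Other genes of the pathway were taken from 3 lists. Of 20 further family members and partners, 16 were measured and 14 tested. By at least 2-fold, 2 were higher in the EPI-like cells (11.7% of all genes tested were) and 1 in the PrE-like cells (8.12% of all). The median difference was -0.06, against 0.03 over all genes tested. Bok, an effector-like member, differed by 1.83 (above the floor in 6 of 9 against 4 of 11 cells), and Bmf, a BH3-only gene linked to the cytoskeleton, by 1.56 (7 of 9 against 4 of 11). Bid, the BH3-only gene that links death receptors to mitochondria, differed by -1.49 (3 of 9 against 7 of 11). All 3 differences were within the larger SD, and with values raised to the floor they were 1.05, 0.72 and -0.74. Vdac2, a channel of the outer membrane, was steadiest with Bik, a BH3-only gene (SD of 0.24 and 0.28 over the 20 cells), although Bik lay close to the floor. Split by Fgf4, 3 were at least 2-fold higher with Fgf4 (11.6% of all genes tested) and 0 without it (8.39%). Bnip3 (1.43) was then past 2-fold and Bid (-0.72) no longer so. Bcl2l10 was above the floor in 0 cells.

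The caspase pathway acts downstream of the mitochondrion. Of its 18 measured genes, 6 were above the floor in all 20 cells (17.6% of all genes represented were), among them Cycs (cytochrome c), Diablo and the caspase inhibitor gene Xiap, and Apaf1, the scaffold of the apoptosome, was above it in 16. Casp8, the initiator caspase of death receptors, was above it in 0 cells and its adaptor gene Fadd in 1. Of the 16 tested, 0 had the higher mean in the EPI-like cells by at least 2-fold (11.7% of all genes tested) and 2 in the PrE-like cells (8.12%), with a median difference of -0.12. Split by Fgf4 the counts were 0 and 3 (11.6% and 8.39% of all genes tested), with Birc2 (-1.08) added. Dffb, the nuclease that cuts DNA between nucleosomes, read 5.46 ± 1.99 in the 9 EPI-like against 7.496 ± 1.88 in the 11 PrE-like cells, a difference of -2.03 that was -0.92 with values raised to the floor and -2.68 split by Fgf4. Casp6, an executioner caspase gene, differed by -1.24, within the larger SD. Cycs and Xiap were the steadiest (SD of 0.27 and 0.40), and Birc3, an inhibitor of apoptosis gene above the floor in 8 cells, was among the most variable (SD 2.46).

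Regulators and targets of p53 went both ways. Of 30 measured, 23 were tested, 4 with the higher mean in the EPI-like cells by at least 2-fold (11.7% of all genes tested) and 5 in the PrE-like cells (8.12%), with a median difference of 0.14. Split by Fgf4 the counts were 5 and 4 (11.6% and 8.39% of all genes tested). Rrm2b (1.10) was added and Polk (-0.60) was no longer past 2-fold. Known p53 targets lay on both sides. Zmat3, Phlda3, Ccng1, Ppm1d and Polk were the 5 higher in the PrE-like cells, and Ei24 and Gtse1 were among the 4 higher in the EPI-like cells. Under 2-fold were Perp (0.75), Xpc (0.49), Mdm2 (0.44), Rrm2b (0.23) and Aen (0.01). Also under 2-fold, with the opposite sign, were Sesn1 (-0.14), Trp53inp1 (-0.54), Btg2 (-0.68) and Sesn2 (-0.99). Zmat3, an RNA-binding protein gene, read 4.87 ± 2.57 (above the floor in 2 of 9 cells) against 8.39 ± 2.12 (8 of 11), a difference of -3.51, or -1.52 with values raised to the floor and -3.08 split by Fgf4. Phlda3, an AKT inhibitor gene, was above the floor in 0 of 9 EPI-like and 7 of 11 PrE-like cells, with a level at least 1.94-fold higher in the latter. Its highest cell was cell 16, at 8.98, and in the split by Fgf4 the floor was passed in 1 of 10 cells with Fgf4 and 6 of 10 without it. Ccng1 differed by -1.72, Ppm1d by -1.61 and Polk by -1.10, each within the larger SD. With values raised to the floor these differences were -1.68, -0.51 and -0.10, so those of Ppm1d and Polk were then under 2-fold. The 4 were Ei24, Chek2, Gtse1 and Chek1, of which Ei24, a p53-induced membrane protein gene of the endoplasmic reticulum, read 11.63 ± 0.40 against 9.56 ± 1.22, a difference of 2.08. Split by Fgf4 Ei24 differed by 2.30, with no overlap (11.10 to 12.37 against 7.65 to 10.73), as for 0.0952% of genes tested in this direction. The clusters did overlap for Ei24, with the lowest EPI-like cell at 11.10 and the highest PrE-like cell at 11.71. The DNA damage checkpoint kinase genes Chek2 and Chek1 differed by 1.68 and 1.24. Gtse1, a p53-induced gene whose product restrains p53 in G2 phase, differed by 1.27. These differences were within the larger SD, and with values raised to the floor they were 1.32, 0.59 and 0.94. Cell 4, among the cells with the lowest scores for mitotic genes, had the lowest level of each of these genes. Cdkn1a, the p53 target that encodes the cell cycle inhibitor p21, was above the floor in 1 cell, and Fas, Tnfrsf10b, Trp63, Trp73 and Cdkn2a in 0. Usp7 and Perp were the steadiest (SD of 0.49 and 0.87), although Perp lay close to the floor and was above it in 9 cells. Zmat3 and Sesn2 varied most (SD of 2.89 and 2.42).

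**Figure D4:**
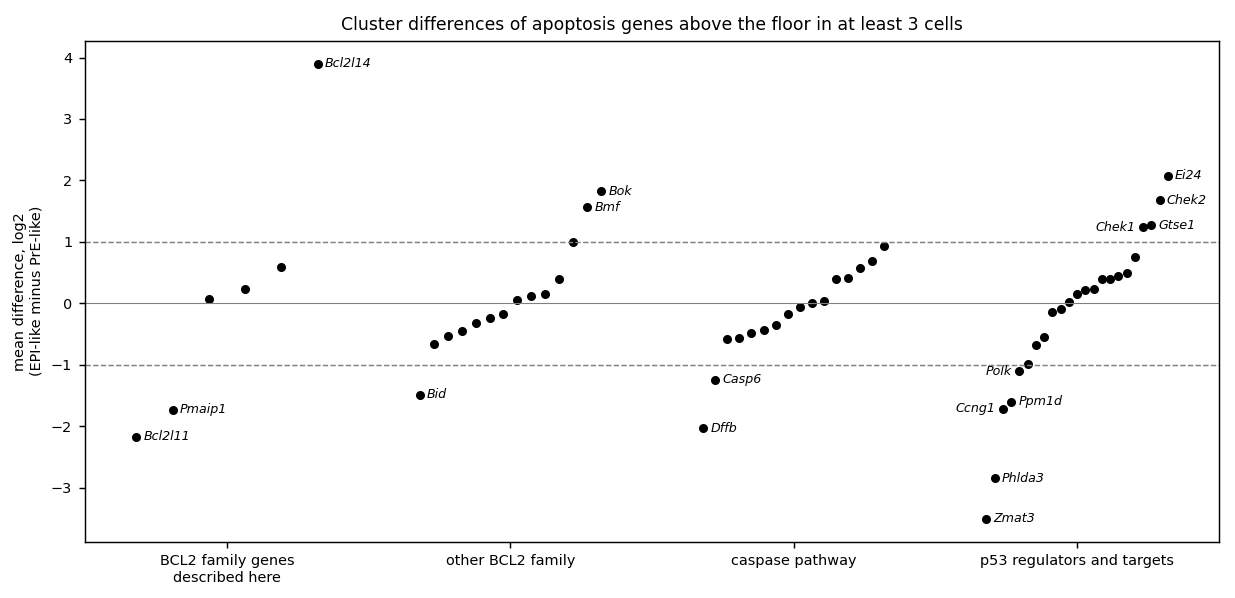
Difference in mean level between the 9 EPI-like and the 11 PrE-like cells (vertical axis, log2, EPI-like minus PrE-like) of each tested gene, in the 6 BCL2 family genes described here and 3 lists of pathway genes. Points past the dashed lines differ by at least 2-fold and carry names. Bcl2l14, at 3.90, is the highest point, and Zmat3, at -3.51, the lowest.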

How the data were processed

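The authors deposited a linear intensity for each probe set, between 1 and 26616. Per the labels' protocols, the cDNA of each cell was amplified by PCR without purification and labelled as biotin cRNA by the Affymetrix one-cycle protocol. The sources used here do not name the summary software, background correction or scaling. Trimmed array means (2% at each end) ran from 182.5 to 221.2, so arrays were quantile normalized. No cell was left out, and 0 columns had no sample.

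Of 45101 probe sets, 34945 had 1 gene in the platform annotation, 932 several (not named) and 9160 none, besides 64 controls. Symbols were updated through RefSeq (GRCm38.p6) for 34741. As pseudocount served the 25th percentile of an array, in its median over the 20 arrays. Genes exceeding the floor in 3 cells or more were tested for variance over cells with limma 3.58.1 (R 4.3.3), using squeezeVar with a trend on the mean and an F test, adjusted by Benjamini-Hochberg at 0.05. In simulated data with 10499 genes, 110 of 200 with a 16 times larger variance were called. In the 20 cells the variance of Pmaip1 was 17.7 times that of the trend, yet its adjusted p in the variance test was 0.725. Of the 10499 genes tested in these cells, 0 were called. The count from simulated data is not to be carried over to these cells, where the share that can be called was not tested. Cells were clustered by Ward's method (scipy 1.17.1, mean silhouette 0.10).

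Named genes were all members, the 2 most and 2 least variable genes of each pathway list, those at least 2-fold different between clusters, and the 3 closest in rank to each member above the floor in 5 to 15 cells. Bnip3, Birc2, Rrm2b, Fadd, Casp8, Apaf1, Diablo, Cdkn1a, Bcl2l10, Mdm2, Aen, Xpc, Sesn1, Trp53inp1, Btg2 and the p53-list genes above the floor in 0 cells were named after their values were seen. The members and lists were chosen with earlier results of these data known. The number of arrays and the signal over the floor limit the precision.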

Additional observations from a re-analysis of the deposited data

How the results depend on the processing

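Alternatives were the deposited values, pseudocounts from the 10th or 50th percentile, the mean of all probe sets, floors from the 90th or 99th percentile, values raised to the floor, other filters, other clusterings (the main clusters were kept in all other settings), and leaving out cell 19 or cells 4, 8, 17 and 20. Leaving out cell 16, or cells 4 and 20, was added after seeing the data. The variance test called 0 genes in all 10 settings in which it was run. The count of members at least 2-fold different was 2 or 3 in every setting, and the 2 were those without Bcl2l11. Of the 10499 genes tested, 19.8% differed by at least 2-fold in either direction between the main clusters. Pmaip1, Bcl2l11 and Bcl2l14 kept their direction in every setting run, with differences from -2.53 to -1.44, from -2.62 to -0.74 and from 2.82 to 4.42. The small differences of Bbc3 and Bcl2l1 turned sign, Bbc3 without cell 19 (-0.07) and Bcl2l1 with the mean of all probe sets (-0.08). The 2 pairs of members with a correlation of at least 0.5 in size became 1 with the pseudocount from the 10th percentile and 0 with the mean of all probe sets, where Bcl2l14 and Mcl1 had r = 0.40, and 3 without cells 4, 8, 17 and 20. The count of members above the floor in at least 3 cells was between 4 and 6. In the main setting this state held for 57.7% of all genes represented. No paired analysis was possible because all 20 cells form 1 group. The signal over the floor limits what can be said of Bbc3, Bak1, Bcl2 and Bcl2l1.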
